A study of Mus musculus with 4 samples.

Results

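The genes described here encode the 4 myocyte enhancer factor 2 transcription factors (Mef2a, Mef2b, Mef2c and Mef2d) and the 4 class IIa histone deacetylases (Hdac4, Hdac5, Hdac7 and Hdac9), as read by single-nucleus ATAC-seq in mouse inguinal white adipose tissue (iWAT). ATAC-seq finds open chromatin with a transposase that cuts and tags the DNA it can reach. The members were chosen by name, and a peak belonged to a gene when it overlapped the gene body or the 2000 bases upstream. All 8 genes had peaks, and together they held 226 of the 189598 deposited peaks, while 17173 protein-coding genes had at least 1 peak.

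MEF2 proteins bind A- and T-rich DNA through a MADS box and are best known for switching on muscle genes. Class IIa histone deacetylases have little catalytic activity of their own. They bind MEF2 and hold its target genes silent together with the NCoR/SMRT-HDAC3 corepressor, until kinases such as CaMK, PKD and the salt-inducible kinases phosphorylate them and 14-3-3 proteins carry them out of the nucleus. Protein kinase A, which β3-adrenergic signalling activates in adipocytes, restrains the salt-inducible kinases and so favours nuclear class IIa deacetylases. MEF2 activates Ppargc1a, the gene of the coactivator PGC-1α, in muscle, and Mef2c is also needed for B cell proliferation.

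The tissue came from 21 male C57BL/6 mice of 8 weeks, 3 in each of 7 groups. The controls (day0RT) were kept at room temperature, 22 °C. The other groups spent 1, 3 or 7 days in the cold (day1C, day3C, day7C) or received the β3-adrenergic agonist CL-316,243 (CL) at 1 mg/kg for as long (day1CL, day3CL, day7CL). No group carried a transgene or a deletion, and whole tissue was used, so nuclei of any cell in or attached to the fat pad could be present. The libraries of the mice were pooled in sequencing lanes, and each nucleus was given to its mouse by the deposited annotation.

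Mef2c (ENSMUSG00000005583) had 30 peaks over chr13:83504034-83667080 (mm10, + strand), 15.8 kb of peaks in all. Mef2a (ENSMUSG00000030557, chr7:67231163-67372858, − strand) had 17 peaks, 8 of which it shared with its neighbour Lysmd4. Mef2b (ENSMUSG00000079033, chr8:70139711-70167488, + strand) and Mef2d (ENSMUSG00000001419, chr3:88142372-88172086, + strand) had 5 peaks each. The promoter peak of Mef2b at chr8:70138885-70140008 was shared with Borcs8 and Rfxank, so its counts could not be assigned to 1 gene. Among the deacetylases, Hdac9 (ENSMUSG00000004698, chr12:34047580-34917095, − strand) had 86 peaks and Hdac4 (ENSMUSG00000026313, chr1:91928779-92195699, − strand) had 53, and in neither did a peak lie within 2000 bases of the annotated gene start. Hdac7 (ENSMUSG00000022475, chr15:97792664-97844502, − strand) had 19 peaks and Hdac5 (ENSMUSG00000008855, chr11:102194432-102230166, − strand) had 11. Peaks within 2000 bases of the gene start are called promoter peaks here. The shared one of Mef2b was open in 3987 nuclei, and the most open ones of the other genes were those of Mef2a (chr7:67372244-67373739, 3517 nuclei), Hdac5 (chr11:102229755-102230803, 2262), Mef2d (chr3:88143093-88143801, 1253), Hdac7 (chr15:97842006-97842516, 444) and Mef2c (chr13:83503960-83504266, 54). Those of Mef2d and Hdac7 lay in introns after the start, and the peak over the start of Hdac7 (chr15:97844030-97844504) was open in 270 nuclei.

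The sequences below lie wholly or partly in member peaks that are named in the results. They were read from the RefSeq GRCm38.p6 assembly (mm10) on the + strand, and capitals mark the MEF2 consensus, which is CTA, then 4 bases that are each A or T, then TAG, and has the same form on both strands. The first is the intron of Mef2c that was more open in treated adipocytes and holds 2 copies of the consensus, at chr13:83603975-83603984 and chr13:83603997-83604006. The next pair lies before the first exon of Hdac5, whose promoter peak was less open after 7 days of CL, and before that of Mef2c. The Mef2c stretch overlaps its promoter peak (chr13:83503960-83504266) only in part.
Mef2c intron, chr13:83603875-83604106: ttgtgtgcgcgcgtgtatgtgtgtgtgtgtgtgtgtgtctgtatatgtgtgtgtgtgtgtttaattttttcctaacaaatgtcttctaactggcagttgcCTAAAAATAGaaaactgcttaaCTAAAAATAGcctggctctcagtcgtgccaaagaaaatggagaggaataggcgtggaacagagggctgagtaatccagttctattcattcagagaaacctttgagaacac
Hdac5 upstream, chr11:102230173-102230322: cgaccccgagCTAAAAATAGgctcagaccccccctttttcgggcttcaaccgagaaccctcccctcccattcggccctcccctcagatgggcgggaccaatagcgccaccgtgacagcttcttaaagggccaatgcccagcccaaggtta
Mef2c upstream, chr13:83503867-83504016: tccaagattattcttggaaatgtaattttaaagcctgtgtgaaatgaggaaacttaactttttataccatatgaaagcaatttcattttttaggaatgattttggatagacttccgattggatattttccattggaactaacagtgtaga

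The next set holds the middle 300 bases of 2 introns of Mef2d that were more open in beige adipocytes, of 2 introns of Hdac9 that were less open there, and of a Hdac9 intron that was more open after 3 and 7 days of cold. None of these 5 windows holds the consensus, so they have no capitals.
Mef2d intron, chr3:88148786-88149085: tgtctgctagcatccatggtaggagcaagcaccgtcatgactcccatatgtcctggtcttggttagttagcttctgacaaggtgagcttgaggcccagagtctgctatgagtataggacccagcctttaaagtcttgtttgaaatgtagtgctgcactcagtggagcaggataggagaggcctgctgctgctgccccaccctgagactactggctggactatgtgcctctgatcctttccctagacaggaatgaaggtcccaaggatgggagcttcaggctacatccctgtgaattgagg
Mef2d intron, chr3:88166194-88166493: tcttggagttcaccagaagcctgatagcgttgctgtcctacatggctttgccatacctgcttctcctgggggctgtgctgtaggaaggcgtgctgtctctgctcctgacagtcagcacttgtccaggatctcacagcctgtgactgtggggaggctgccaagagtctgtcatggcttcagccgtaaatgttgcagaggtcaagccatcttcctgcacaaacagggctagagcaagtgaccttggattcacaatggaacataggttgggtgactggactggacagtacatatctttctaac
Hdac9 intron, chr12:34844846-34845145: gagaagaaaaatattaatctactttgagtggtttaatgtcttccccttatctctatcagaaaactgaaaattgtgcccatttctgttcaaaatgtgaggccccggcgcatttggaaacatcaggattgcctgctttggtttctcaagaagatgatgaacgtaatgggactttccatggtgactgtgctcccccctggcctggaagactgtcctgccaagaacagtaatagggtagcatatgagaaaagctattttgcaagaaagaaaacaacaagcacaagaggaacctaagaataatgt
Hdac9 intron, chr12:34124621-34124920: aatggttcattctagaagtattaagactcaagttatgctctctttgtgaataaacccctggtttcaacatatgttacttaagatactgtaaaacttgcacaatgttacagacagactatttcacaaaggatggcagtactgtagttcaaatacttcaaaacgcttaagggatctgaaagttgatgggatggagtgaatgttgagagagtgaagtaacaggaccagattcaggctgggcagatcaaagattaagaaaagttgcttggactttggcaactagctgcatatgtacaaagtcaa
Hdac9 intron, chr12:34776233-34776532: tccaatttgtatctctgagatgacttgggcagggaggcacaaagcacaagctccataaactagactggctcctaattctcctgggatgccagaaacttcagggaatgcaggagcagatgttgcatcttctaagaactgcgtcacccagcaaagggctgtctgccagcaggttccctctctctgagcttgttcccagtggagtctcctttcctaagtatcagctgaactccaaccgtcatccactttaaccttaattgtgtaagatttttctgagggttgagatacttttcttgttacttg

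The consensus lay in 10 of the 226 member peaks (4.425%), against 1.367% of all peaks. Its looser form, which also allows T for the first base and A for the last, lay in 29 member peaks and in 6.265% of all peaks. Mef2c had 3 peaks with the consensus, Hdac5 and Hdac9 had 2 each, Mef2a, Hdac4 and Hdac7 had 1 each, and the peaks of Mef2b and Mef2d had none. The copies of Mef2a (CTATTTTTAG, chr7:67372851-67372860) and Hdac5 (CTAAAAATAG, chr11:102230183-102230192) lay at the gene start, the first across it and the second just before it. A match of letters is a description and does not show that a factor was bound.

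The deposited matrix held 32552 nuclei in 12 annotated clusters, with 1111 to 2021 nuclei and 1340376 to 6916698 counts per mouse. Every entry was 0 or 1, so a count is a nucleus with a read in a peak. Lymphocyte clusters made up between 11.88% and 90.76% of the nuclei of a mouse, with a median of 72.43%. Gene values are given as CPM, the counts of the gene divided by the gene counts of all nuclei of 1 cluster in 1 mouse (a library) and multiplied by 1000000, and libraries of fewer than 10 nuclei were left out. In 8739 nuclei (26.85%) the barcode sequence also occurred in another mouse, always one of the same treatment and replicate number. That mouse was therefore of another day, and no day0RT nucleus was among the 8739. Leaving these nuclei out thus thinned the treated libraries only. Of the 8739, 112 shared over 50% of their open peaks with the nucleus of the same barcode. The marker lists stood highest in the adipocyte clusters (summed level 2483 CPM in white and 2215 CPM in beige), in the beige cluster for thermogenic genes (1914 against 1096 CPM in white) and in B cells (1649 CPM), as their labels say. The cluster annotated as vascular smooth muscle (VSMC, 283 nuclei) went against its label. Its skeletal muscle markers, of which 11 of 12 had a peak, summed to 2130 CPM, against 361 CPM in the next cluster. Ttn stood there at 464 CPM, Ckm at 283 CPM and Myod1 at 68.5 CPM, while Acta2 was at 16.7 CPM, and the smooth muscle list was higher in the second progenitor cluster (666 CPM) than in the VSMC cluster (269 CPM).

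The 8 genes were highest in different clusters. Mef2c and Mef2b were most accessible in B cells, Mef2d, Hdac4 and Hdac5 in the VSMC cluster, Hdac7 in CD8 T cells, and Hdac9 in B cells and the second progenitor cluster (APC2). Clusters were made from the same counts, so these levels are a description with no test. Of 88 gaps between neighbours in the order of the 12 clusters, over the 8 genes, 6 were larger than the larger of both SDs, and all other neighbours lay within their spread between mice.

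**Figure D1:**
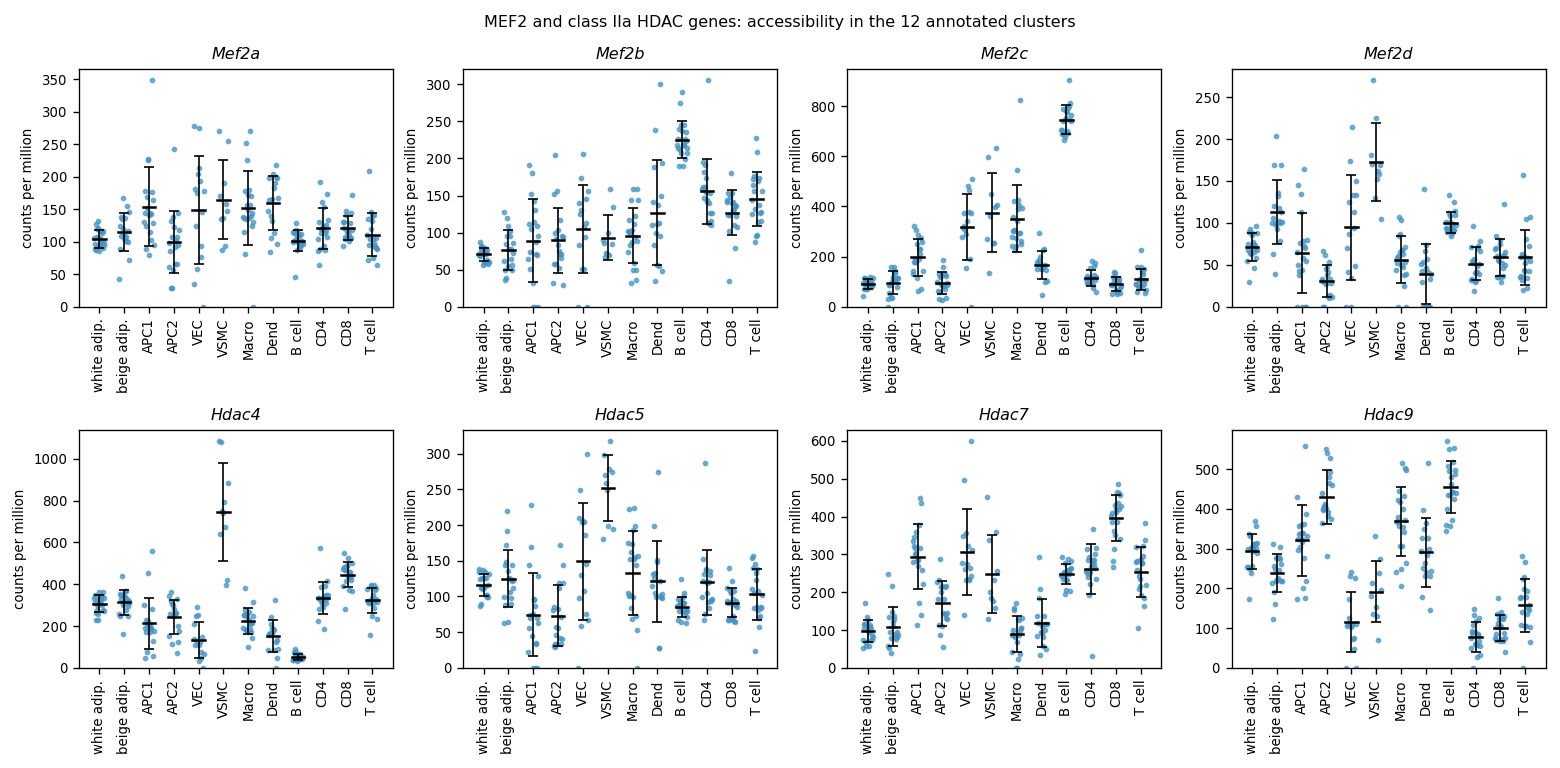
Accessibility of the 8 genes in each cluster, in CPM. Each point is 1 mouse with at least 10 nuclei of the cluster, and the bar gives the mean ± SD. Mef2c in B cells lies between 664 and 904 CPM, above its mean in any other cluster, and Hdac4 is highest in the VSMC cluster and lowest in B cells.

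Mef2c, the family member that B cells need to proliferate, stood at 746 ± 57.2 CPM in B cells (SD, n = 21 mice, with a lowest value of 664, a median of 745 and a highest of 904). The VSMC cluster followed with 376 ± 157 CPM (n = 10), then macrophages with 351 ± 135 CPM (n = 21) and endothelial cells (VEC) with 318 ± 132 CPM (n = 15). B cells were higher than the VSMC cluster in 10 of the 10 mice with both libraries, and the VSMC cluster, macrophages and VEC did not differ from each other beyond their spread. The first progenitor cluster (APC1) had 197 CPM, dendritic cells 166 CPM, CD4 T cells 115 CPM and other T cells 108 CPM. Mef2c was low in fat cells, at 94.7 ± 45.9 CPM in beige nuclei (n = 19) and 91.2 ± 18.9 CPM in those of white adipocytes (n = 21), close to APC2 (93.9 CPM) and to CD8 T cells, the lowest cluster (89.7 ± 26.7 CPM).

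Mef2b, a gene mutated in some B cell lymphomas, also led in B cells with 225 ± 24.8 CPM (lowest 190.1, median 219, highest 290.4). It exceeded CD4 T cells (156 ± 43.6 CPM) in 19 of 20 mice, and the lowest level was that of white adipocytes (70.4 ± 9.12 CPM). Mef2a varied least, from 164 ± 60.9 CPM in the VSMC cluster to 99.4 ± 48.2 CPM in APC2, with beige adipocytes at 114 ± 29.3 CPM and white ones at 104 ± 13.6 CPM, and no neighbours in its order differed beyond their spread. Mef2d stood at 172 ± 46.5 CPM in the VSMC cluster (lowest 105, median 166, highest 270.3), which was above beige adipocytes (113 ± 38.3 CPM) in 9 of 10 mice. B cells had 100.4 ± 12.5 CPM of Mef2d, white adipocytes 71.1 ± 16.3 CPM and APC2, the lowest cluster, 30.6 ± 19.2 CPM. Per kilobase of peaks in B cells, the mean level of Mef2b (62.2 CPM per kb) was above that of Mef2c (47.3 CPM per kb). All Mef2b levels include the promoter peak shared with Borcs8 and Rfxank, whose counts cannot be assigned to Mef2b alone.

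Hdac4, which restrains MEF2 in muscle, had the widest range of the deacetylases. It stood at 746 ± 234 CPM in the VSMC cluster (lowest 396, median 745, highest 1084), and at 52.8 ± 15.2 CPM in B cells (lowest 34.7, median 50.4, highest 91.6), so the means differed 14.1-fold. CD8 T cells came second with 446 ± 60.9 CPM and exceeded CD4 T cells (336 ± 77.0 CPM) in 18 of 20 mice. Beige and white adipocytes lay in the middle with 313 ± 59.8 and 306 ± 40.4 CPM. Hdac5, a close relative of Hdac4 and also a brake on MEF2 in muscle, stood at 252 ± 46.2 CPM in the VSMC cluster (lowest 181, median 265, highest 317), above VEC (149 CPM) in 9 of 9 mice, with beige adipocytes at 125 CPM and white ones at 116 CPM.

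Hdac7, which keeps blood vessels intact and acts in thymocytes, was highest in CD8 T cells at 396 ± 60.5 CPM (lowest 266, median 411, highest 485). VEC (306 CPM) and APC1 (294 CPM) followed, B cells had 248 CPM, and beige adipocytes (109 ± 52.6 CPM), white adipocytes (96.6 ± 29.3 CPM) and macrophages (89.1 ± 48.4 CPM) were at the end of the order. Hdac9, known as a brake on adipocyte differentiation, stood at 456 ± 65.8 CPM in B cells (lowest 344, median 443, highest 570.2) and at 431 ± 67.9 CPM in APC2, and these neighbours did not differ beyond their spread. Macrophages had 369 CPM, APC1 321 CPM, white adipocytes 293 ± 43.9 CPM and beige adipocytes 238 ± 47.5 CPM of Hdac9, and CD4 T cells were lowest with 78.1 ± 37.4 CPM. Mef2c and Hdac9 therefore both stood highest in B cells, in the cluster where Hdac4 was lowest.

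Single peaks divided these levels further. Peak CPM is scaled to the peak counts of the library, a different denominator from that of the genes. Of the 30 Mef2c peaks, 15 had their highest mean in B cells and 10 in the VSMC cluster. The Mef2c peak at chr13:83571848-83572780, inside the gene over the start of a shorter transcript, stood at 134 ± 16.5 peak CPM in B cells and 58.1 ± 21.2 in macrophages, against 3.69 in white adipocytes. The peak over the Mef2c start, which overlaps the upstream sequence printed above, was at 51.5 ± 38.5 peak CPM in the VSMC cluster, where it was open in 31 nuclei and in 9 of 10 mice, and at 1.40 or less in every other cluster. Of the 53 Hdac4 peaks, 23 were highest in the VSMC cluster and 9 in CD8 T cells, and 4 of the 5 Mef2d peaks were also highest in the VSMC cluster. The 86 Hdac9 peaks were spread more widely, with 25 highest in B cells, 13 in macrophages, 11 in APC1 and 10 in white adipocytes. One of them, chr12:34528751-34529459, reached 22.2 ± 5.70 peak CPM in B cells and at most 7.14 elsewhere. The Hdac9 intron at chr12:34124383-34125158, printed above, was open in 331 white and 29 beige nuclei and in at most 7 nuclei of any other cluster. The Hdac7 peak at chr15:97844030-97844504 stood at 23.7 ± 12.8 peak CPM in CD8 T cells, 7.27 in other T cells and at most 4.60 in the other clusters.

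The genes whose pattern over the 12 clusters was most like that of each member were found by Pearson's r of log2(mean CPM + 1) among 14996 genes, which shared libraries and depth with the members. They were Filip1 (0.84) for Mef2a, Gorasp2 (0.96) for Mef2b, 4931422A03Rik (0.92) for Mef2c, Szrd1 (0.93) for Mef2d, D430041D05Rik (0.92) for Hdac4, Ice1 (0.91) for Hdac5, Shf (0.90) for Hdac7 and Carmil1 (0.90) for Hdac9. Next in the order came Mex3d and Rasgef1c, Cd2ap and Zscan20, Ehd4 and Mybbp1a, Mlycd and Yipf7, Capn3 and Smad3, Commd5 and Cep85l, Irf2bpl and Wdr59, and Rarres1 and Abhd16b. No member was among the 3 genes most like another.

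Beige and white adipocytes of the same mouse differed in 2 of the 8 genes: Mef2d was more open in beige and Hdac9 more open in white nuclei. The comparison used the 19 mice with at least 10 nuclei of each kind (12 to 107 beige and 144 to 847 white nuclei per mouse), with the mouse as a block in edgeR's quasi-likelihood test. It called 28.4% of the 13438 genes tested (13% higher and 15.4% lower in beige), so 2 of 8 is near the background. Because the authors separated beige from white nuclei by these very counts, the test repeats information already used to make the clusters. Ucp1, the uncoupling protein of thermogenic fat, stood at 55.0 ± 36.3 CPM in beige and 5.87 ± 3.03 CPM in white nuclei and was higher in beige in 17 of 19 mice.

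Mef2d stood at 113 ± 38.3 CPM in beige nuclei (lowest 38.3, median 103, highest 204) and at 72.3 ± 13.3 CPM in white nuclei (lowest 46.2, median 69.5, highest 96.4). The ranges overlapped, but 17 of 19 mice were higher in beige, with a log2 fold change of 0.56 (SE 0.09, adjusted p = 1.31e-07). Hdac9 moved the other way, from 297 ± 35.1 CPM in white nuclei (lowest 239.6, median 301, highest 368) to 238 ± 47.5 CPM in beige nuclei (lowest 124, median 245, highest 311). It was higher in beige in 3 of 19 mice, with a log2 fold change of -0.35 (SE 0.06, adjusted p = 4.48e-06). Without nuclei whose barcode occurred in another mouse, the log2 fold changes were 0.59 for Mef2d and -0.27 for Hdac9, and both still passed the threshold.

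The other 6 genes did not pass it. Hdac4 was the closest to equal, at 313 ± 59.8 CPM in beige and 312 ± 36.5 CPM in white nuclei, with a 95% interval of the log2 fold change from -0.12 to 0.13. The intervals of Hdac5 (-0.12 to 0.21), Hdac7 (-0.09 to 0.27), Mef2a (-0.04 to 0.31), Mef2b (-0.08 to 0.32) and Mef2c (-0.03 to 0.33) leave room for small differences. The median log2 fold change of the 8 genes was 0.11, beside -0.00 over all genes tested, and 7 of the 8 were above 0.

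**Figure D2:**
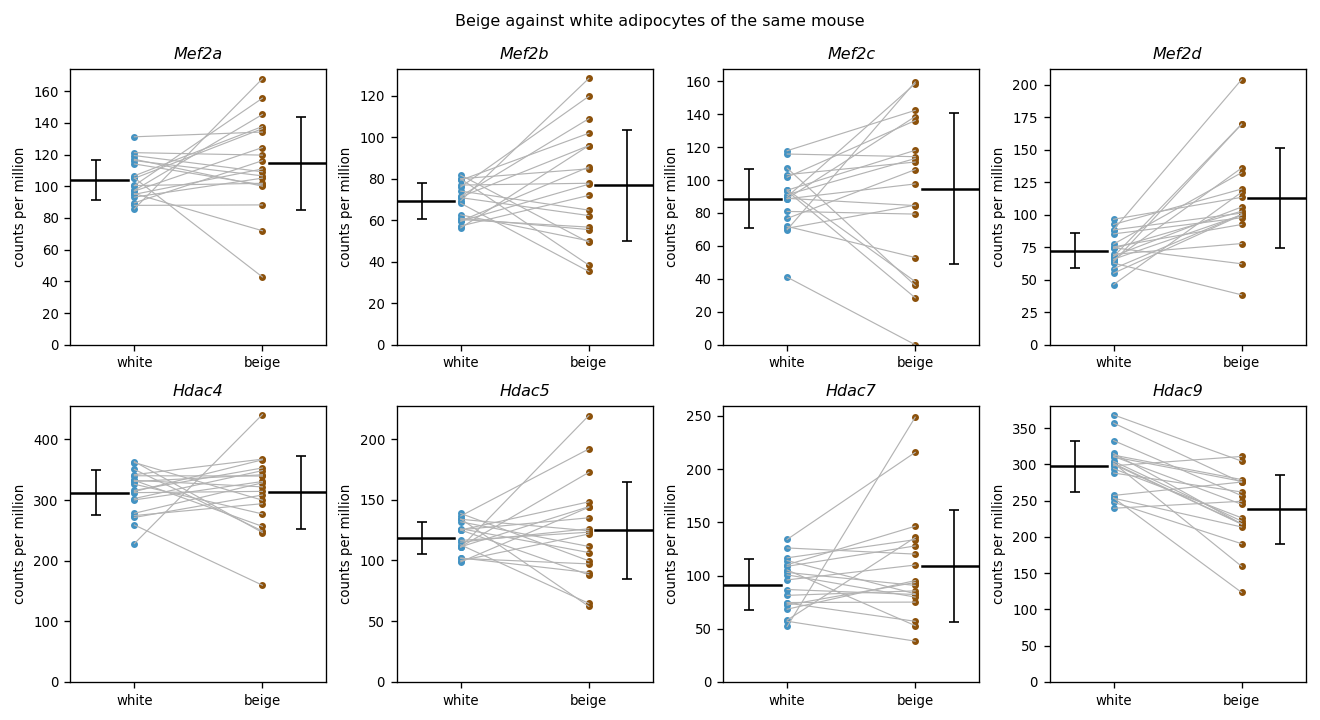
Accessibility of the 8 genes in white and beige adipocytes, in CPM. Each line joins both libraries of 1 of 19 mice, and the bars give the mean ± SD. Mef2d rises from white to beige in 17 mice and Hdac9 falls in 16, while the lines of Hdac4 cross with means of 312 and 313 CPM.

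Peaks in 2 introns of Mef2d were more open in beige nuclei. Of the 226 member peaks, 27 had enough counts to be tested in beige against white, and 6 were higher and 4 lower in beige by edgeR, beside 28.6% of the 34063 peaks tested (11.2% higher, 17.5% lower). The filter on counts took white and beige libraries together, so a peak could enter through beige libraries alone. No white library reached the level the filter asks for at the Mef2c peak chr13:83596582-83596951 (highest 4.42 peak CPM) or the Hdac7 intron chr15:97823616-97824645 (18.4). The same held for chr1:92086663-92087463 in Hdac4 (20.5) and chr3:88148290-88149581 in Mef2d (20.7). The calls of these peaks are therefore a description. The Mef2d intron at chr3:88148290-88149581 stood at 25.0 ± 15.2 peak CPM in beige and 12.7 ± 4.47 in white nuclei and was higher in 15 of 19 mice (log2 fold change 0.75, SE 0.17, adjusted p = 9.26e-05). The intron at chr3:88165821-88166866 stood at 24.2 ± 10.5 against 15.1 ± 4.71 peak CPM, higher in 17 of 19 mice, with a log2 fold change of 0.63. The Mef2d promoter peak did not pass the test. Its mean was 30.3 ± 14.3 peak CPM in beige and 23.3 ± 7.00 in white nuclei, higher in beige in 12 of 19 mice, while the fitted log2 fold change was -0.06, so mean and fit differed in sign. With promoter peaks alone Mef2d lost its call with a log2 fold change of 0.04.

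Hdac9 was less open in beige nuclei at intronic peaks far from a start site, on few beige counts. The peak at chr12:34844508-34845483 stood at 9.75 ± 11.5 peak CPM in beige and 17.3 ± 3.44 in white nuclei and was higher in beige in 3 of 19 mice (log2 fold change -1.24). The adipocyte peak at chr12:34124383-34125158 stood at 8.30 ± 11.7 against 12.5 ± 5.49 peak CPM (log2 fold change -1.21), with 4 of 19 mice higher in beige. The other Hdac9 peak called, chr12:34397835-34398615, is named although it falls outside the rule of 2 peaks per gene and direction, and its log2 fold change was -0.66. In the order given, these peaks held 37, 29 and 40 counts over all beige nuclei. Beige libraries at 0 numbered 5, 6 and 6 of 19, and 0 white libraries were at 0. Among all clusters, the peak at chr12:34844508-34845483 stood highest in APC2, at 52.7 ± 22.2 peak CPM.

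Mef2c and Hdac7 carried peaks that were more open in beige nuclei although the genes as a whole were not called. At chr13:83596582-83596951 Mef2c had 10.4 ± 11.9 peak CPM in beige and 1.22 ± 1.15 in white nuclei, higher in beige in 13 of 19 mice, with 5 libraries at 0 in each group and a log2 fold change of 2.27. The Mef2c intron with both copies of the consensus had 22.0 ± 12.1 against 14.8 ± 6.96 peak CPM and a log2 fold change of 0.41 (SE 0.16, adjusted p = 0.0417), higher in 13 of 19 mice. The Hdac7 intron at chr15:97823616-97824645 had 24.3 ± 13.4 against 9.67 ± 4.31 peak CPM, higher in 16 of 19 mice, with a log2 fold change of 0.79 (SE 0.21, adjusted p = 0.00128). Hdac4 had 1 peak in each direction, chr1:92086663-92087463 with a log2 fold change of 0.45 and chr1:92112980-92113676, which overlaps an exon, with -0.81. The 4 tested Hdac5 peaks and the single tested peaks of Mef2a and Mef2b did not pass the test.

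Cold and CL were compared with day0RT in white and beige nuclei summed per mouse. The 6 comparisons share the 3 day0RT mice. Groups are described below as overlapping or not, in adipocytes and in B cells. The share of all genes or peaks without overlap was not counted. With 3 mice in each group, 2 groups can lie apart by chance, so a lack of overlap is only a description. There were 3 calls by edgeR among the 48 tests of the 8 genes: Mef2c and Hdac9 were more open after 7 days of CL and Hdac7 after 3 days of CL. Over all 14409 genes tested the calls came to 3.71%, so 3 of 48 is near the background. At an unadjusted p under 0.05 there were 14. The share of all genes at that threshold was not counted, so no excess over the background can be read from this number. Adipocyte libraries held 29 to 933 nuclei, and day1CL rested on thin libraries in replicates 1 (29 nuclei) and 2 (68 nuclei).

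Mef2c stood at 84.0, 38.7 and 70.6 CPM in the day0RT mice. It stood at 72.1, 86.9 and 78.2 CPM after 1 day of cold, 97.4, 99.1 and 93.9 CPM after 3 days, and 80.3, 97.5 and 115 CPM after 7 days. With CL it stood at 143, 129 and 88.0 CPM after 1 day, 94.2, 89.4 and 104 CPM after 3 days, and 122, 107 and 83.9 CPM after 7 days. The day3C, day1CL and day3CL mice all lay above the highest control, while the lowest day7CL mouse lay level with it. The day7CL difference was the one called (log2 fold change 0.70, SE 0.16, adjusted p = 0.00291, 7.8% of genes called), and it was 0.51 with an adjusted p of 0.179 without day7CL replicate 1. The log2 fold change was 0.53 for day7C (adjusted p = 0.0593), 0.49 for day3CL (adjusted p = 0.0711), 0.49 for day3C (adjusted p = 0.117), 0.47 for day1CL and 0.16 for day1C, where 5.09%, 4.78%, 1.64%, 2.61% and 0.34% of genes were called.

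Hdac7 stood at 71.7, 63.3 and 102 CPM in day0RT and at 149, 113 and 126 CPM in day3CL, with no overlap. The log2 fold change was 0.54 (SE 0.16, adjusted p = 0.0297, beside 4.78% of genes called in that comparison). This call was lost in 4 of the 21 fits that each left out 1 mouse (adjusted p up to 0.2105). It was also lost in 4 of 12 other alternatives (up to 0.303). After 1 day of CL Hdac7 stood at 123, 180.0 and 120.1 CPM, also with no overlap, and its log2 fold change of 0.59 did not pass the test (adjusted p = 0.0749). After 7 days of CL it was back to 108, 101 and 74.7 CPM, and in the cold it stayed between 54.6 and 111 CPM at every time. At day 1, CL and cold differed in Hdac7 (log2 fold change of CL over cold 0.77, SE 0.19, adjusted p = 0.0223, beside 0.923% of genes called), with no overlap between the groups. The same contrast gave 0.38 at day 3 (adjusted p = 0.0955, beside 1.45%) and 0.29 at day 7 (adjusted p = 0.571, beside 0.111%). This was the only call among the 24 tests of CL against cold, beside 0.828% over all genes. An unadjusted p under 0.05 was found in 7 of the 24, with no share of all genes counted at that threshold, so no excess can be read from it. The Hdac7 call at day 1 was less firm under some alternatives. It was lost without nuclei whose barcode occurred in another mouse (log2 fold change 0.60, adjusted p = 0.229) and without any one of day1C replicates 1 and 2 and day1CL replicates 2 and 3.

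Hdac9 stood at 248, 299 and 245 CPM in day0RT and at 307, 358 and 337 CPM in day7CL, with no overlap (log2 fold change 0.37, SE 0.11, adjusted p = 0.0259). Without nuclei of a shared barcode it was 0.33 (adjusted p = 0.0582), and the call was lost without day0RT replicate 1 (adjusted p = 0.121) or 3 (adjusted p = 0.179) or day7CL replicate 2 (adjusted p = 0.0975). Beige nuclei, in which Hdac9 was lower, made up 9.22% of adipocyte nuclei in day0RT on average, 20.0% in day7CL and 29.4% in day7C. In white nuclei alone the day7CL log2 fold changes were 0.38 for Hdac9 (adjusted p = 0.0339) and 0.57 for Mef2c (adjusted p = 0.0268), and the day3CL value of Hdac7 was 0.48 (adjusted p = 0.0843). The summed level of the B cell markers in adipocyte libraries was 127 to 197 CPM in day0RT, 140.3 to 145 in day3CL and 159 to 174 in day7CL, so both treated groups lay within the range of the controls. The adipocyte markers summed to 2561 to 3006 CPM in day0RT, to 2142 to 2615 CPM in day7CL and to 2207 to 2513 CPM in day3CL, which did not overlap with the controls. On day 1 they summed to 2267 to 2546 CPM with CL and to 3002 to 3245 CPM in the cold, also with no overlap, and the part of these markers in the calls was not tested. The mean of a mouse was 2296 to 3842 peak counts per adipocyte nucleus in day0RT and 2149 to 7983 in the treated groups. In such sums, a larger share of open nuclei and more open chromatin per nucleus cannot be told apart.

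**Figure D3:**
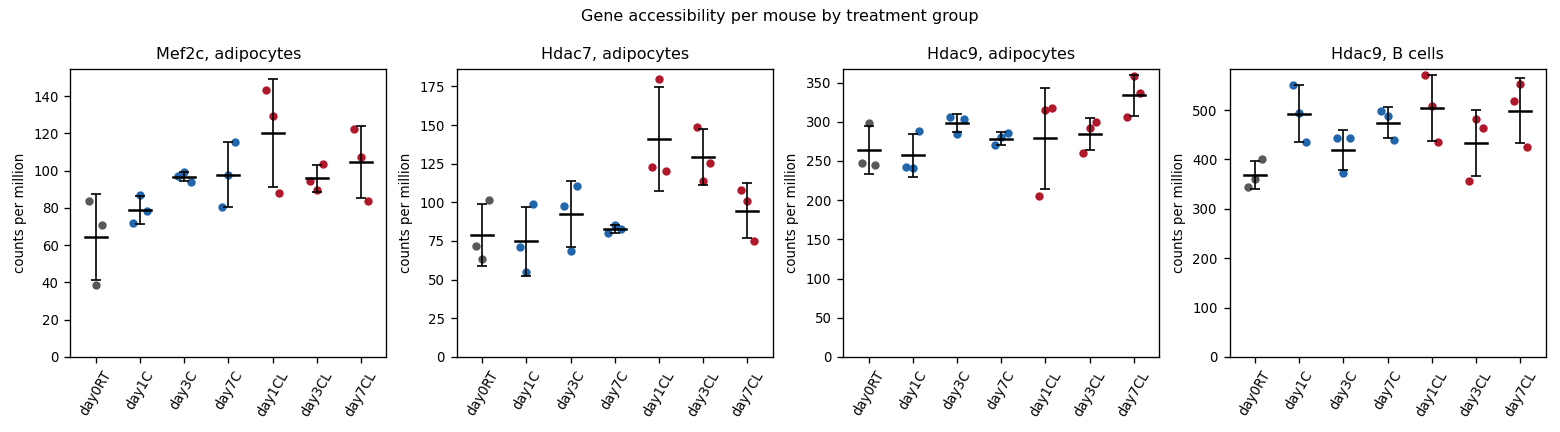
Accessibility by group, in CPM, for Mef2c, Hdac7 and Hdac9 in adipocytes and for Hdac9 in B cells. Each point is 1 mouse, and the line and bar give the mean ± SD of the 3. The adipocyte level of Hdac7 is 113 to 149 CPM in day3CL against 63.3 to 102 CPM in day0RT, and Hdac9 in B cells is at 344 to 401 CPM in day0RT, the group with the lowest mean.

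The other 5 genes had no call in adipocytes, and a lack of overlap given here only describes the mice of both groups. Mef2d, Hdac5, Hdac4 and Mef2a are each given for a single treated group. Mef2d came nearest, with 61.4, 73.9 and 70.6 CPM in day0RT and 103, 97.5 and 92.2 CPM in day7C, which did not overlap (log2 fold change 0.50, adjusted p = 0.0663). Hdac5 stood between 99.8 and 109.8 CPM in day7CL and between 123 and 133 CPM in day0RT, also with no overlap (log2 fold change -0.31, adjusted p = 0.149). Hdac4 stood between 249.6 and 283 CPM in day1C and between 318 and 345 CPM in day0RT (log2 fold change -0.30, adjusted p = 0.314). Mef2a was 109.7 to 132 CPM in day1C against 88.0 to 98.5 CPM in day0RT (log2 fold change 0.35, adjusted p = 0.413). Mef2b stayed between 58.9 and 82.3 CPM over all 21 mice, with log2 fold changes from -0.15 to 0.16. The median log2 fold change of the 8 genes was 0.00 in day1C, 0.16 in day3C, 0.03 in day7C, 0.28 in day1CL, 0.12 in day3CL and 0.19 in day7CL, beside medians from -0.01 to -0.00 over all genes.

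Single peaks of the genes were compared in the same way. Of the 226 member peaks, 42 had enough counts in adipocytes, and 10 of the 252 tests over the 6 treated groups were called by edgeR, beside 2.39% over all 47835 peaks. The 10 calls fell on 6 peaks, which are named although they were chosen after their values were seen. They were 4 calls of 1 Mef2c intron, 2 of 1 Hdac9 intron and 1 each of another Hdac9 intron, of introns of Hdac4 and Hdac7, and of the Hdac5 promoter. The filter on counts took all groups together, so a peak could enter the test through treated mice. No control mouse reached the level the filter asks for at the 2 Hdac9 introns (highest 6.65 and 7.31 peak CPM) or the Hdac7 intron (7.31). At the Mef2c intron only the highest control (11.6) did. The calls of these peaks are therefore a description. All 10 calls were lost without day0RT replicate 3, when 0.601% of all tests were called, and 5 were left without day0RT replicate 2, when 1.15% were called.

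The Mef2c intron at chr13:83603424-83604671, whose middle with both copies of the consensus is printed above, stood at 11.6, 2.79 and 7.31 peak CPM in day0RT (7, 1 and 8 counts). After 1 day of cold it was still at 7.54, 6.00 and 7.43 peak CPM. It stood at 18.7, 20.5 and 12.2 peak CPM in day3C and at 17.7, 23.6 and 28.1 in day7C. With CL it was already at 32.1, 22.1 and 20.3 peak CPM on day 1, though the first of these rested on 2 counts and the second on 5. It stayed at 20.9, 18.5 and 15.8 peak CPM in day3CL and at 25.4, 17.8 and 20.1 in day7CL. All mice of the other 5 treated groups thus lay above every control, while those of day1C lay among the controls.

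The log2 fold change of this Mef2c intron was 1.59 in day7C (SE 0.35, adjusted p = 0.00242, beside 3.13% of peaks called), 1.43 in day1CL (adjusted p = 0.0296, beside 2.06%), 1.22 in day3CL (SE 0.35, adjusted p = 0.0249, beside 3.46%) and 1.59 in day7CL (SE 0.34, adjusted p = 0.000892, beside 4.19%). It was 1.20 in day3C (adjusted p = 0.0523) and -0.09 in day1C, which had no member peak called. At day 1 it was higher with CL than in the cold (log2 fold change 1.52, SE 0.40, adjusted p = 0.037, beside 0.458% of peaks called). In white nuclei alone it was 1.41 in day7C (adjusted p = 0.0611) and 1.36 in day1CL (adjusted p = 0.0855), and the day3CL and day7CL calls remained. This was also the Mef2c intron that was higher in beige than in white nuclei, and the beige share differed between the groups as given above.

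The Hdac9 intron at chr12:34776068-34776697 stood at 6.65, 5.58 and 3.65 peak CPM in day0RT. It stood at 15.4, 19.3 and 14.0 peak CPM in day3C (log2 fold change 1.70, adjusted p = 0.0139, beside 1.28% of peaks called) and at 14.3, 24.7 and 16.9 in day7C (log2 fold change 1.86, adjusted p = 0.00408). All 6 of these mice lay above the controls. With CL it stood at 0, 0 and 9.59 peak CPM on day 1, and its log2 fold changes of 1.21 in day3CL and 1.22 in day7CL were not called. This peak was not called between beige and white nuclei (log2 fold change 0.09, adjusted p = 0.801). In the same 19 mice it had 10.7 ± 9.56 peak CPM in beige and 11.7 ± 5.04 in white nuclei. Of the beige libraries 6 were at 0, so a difference could have been missed.

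The adipocyte peak of Hdac9 at chr12:34124383-34125158 rose from 6.65, 5.58 and 7.31 peak CPM in day0RT to 17.3, 12.1 and 16.6 in day7CL (log2 fold change 1.27, adjusted p = 0.0305), so it was higher after CL although it was lower in beige than in white nuclei. The Hdac4 intron at chr1:92048203-92049487 stood at 18.3, 11.2 and 11 peak CPM in day0RT and at 24.3, 32.1 and 18 in day3CL (log2 fold change 1.04, SE 0.28, adjusted p = 0.0134), and the ranges overlapped. The Hdac7 intron at chr15:97838065-97838867 rose from 1.66, 5.58 and 7.31 to 13.9, 13.4 and 13.2 peak CPM in day3CL (log2 fold change 1.35, SE 0.43, adjusted p = 0.0487), a call that was lost in 18 of the 21 fits without 1 mouse. The Hdac5 promoter fell from 43.2, 25.1 and 29.2 to 15.8, 21 and 21.3 peak CPM in day7CL (log2 fold change -0.83, adjusted p = 0.0203). It was the single call in the lower direction, and its groups did not overlap. Between CL and cold, the Hdac9 intron at chr12:34146604-34147587 was higher with CL at day 3 (log2 fold change 1.15, SE 0.31, adjusted p = 0.0234, beside 1.79% of peaks called).

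**Figure D4:**
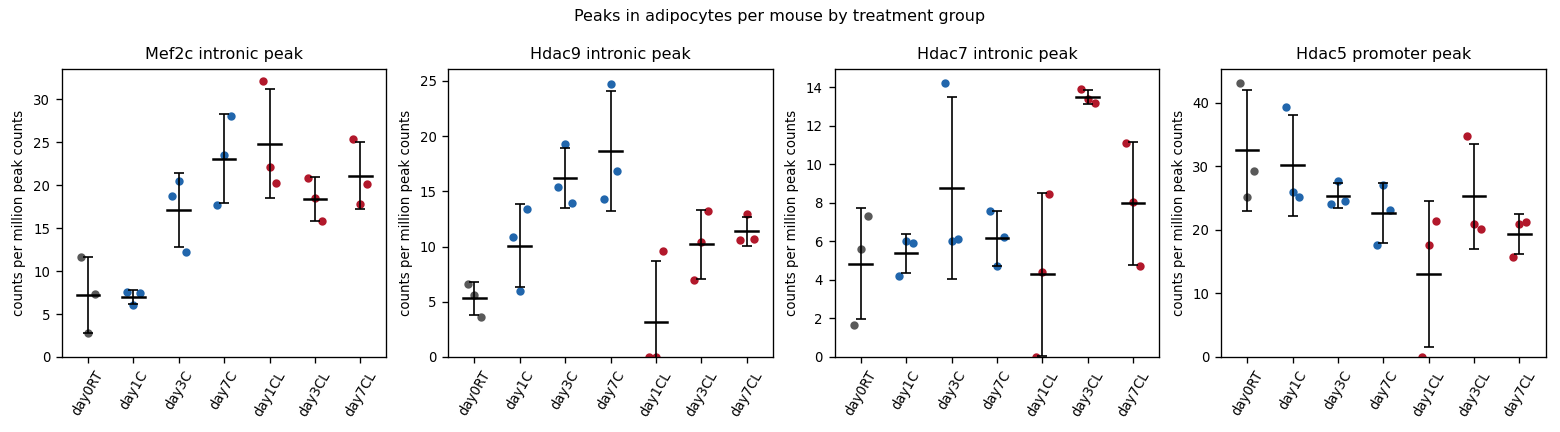
Adipocyte accessibility by group, in peak CPM, for the Mef2c intron with both copies of the MEF2 consensus, for introns of Hdac9 and Hdac7 and for the Hdac5 promoter. Each point is 1 mouse, and the line and bar give the mean ± SD of the 3. The Mef2c intron is at 2.79 to 11.6 in day0RT and at 17.7 to 28.1 in day7C, and the Hdac5 promoter is at 15.8 to 21.3 in day7CL, below the controls.

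In B cells, Hdac9 was more open in treated mice. B cells gave 66 to 860 nuclei per mouse, and 4 of the 48 tests of the members against day0RT were called by edgeR, beside 0.776% over all 11486 genes. An unadjusted p under 0.05 was found in 9, with no share of all genes counted at that threshold, so no excess can be read from it. Hdac9 stood at 344, 361 and 401 CPM in day0RT. It stood at 549.9, 494 and 435 CPM in day1C (log2 fold change 0.40, SE 0.10, adjusted p = 0.0234, beside 0.575% of genes called), at 570.2, 507 and 435 CPM in day1CL (log2 fold change 0.51, SE 0.11, adjusted p = 0.00202, beside 2.7%) and at 518, 553 and 426 CPM in day7CL (log2 fold change 0.47, SE 0.10, adjusted p = 0.00132, beside 1.37%). All 9 of these mice lay above the controls. So did those of day7C (497, 487 and 439 CPM), whose log2 fold change of 0.34 did not pass the test (adjusted p = 0.146). The day3C mice (443, 373 and 443 CPM) and the day3CL mice (357, 481 and 463 CPM) overlapped with them.

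Hdac4, which is lowest in B cells, was the other call there. It stood at 38.2, 35.3 and 43.7 CPM in day0RT and at 73.4, 66.9 and 91.6 CPM in day1CL (log2 fold change 0.82, SE 0.23, adjusted p = 0.0317), where the highest mouse rested on 66 nuclei. Without nuclei of a shared barcode, Hdac9 kept its calls in day1CL (adjusted p = 0.00535) and day7CL (adjusted p = 0.000456) and lost that of day1C (adjusted p = 0.237), and Hdac4 lost its call (adjusted p = 0.342). Beside these calls, the medians over mice were 886 peak counts per B cell nucleus in day1C, 826 in day1CL and 892 in day7CL, against 1592 in day0RT, with 1054 in day3CL, 1278 in day7C and 1753 in day3C. The B cell markers summed to 1416 to 1577 CPM in day1CL against 1720 to 1770 in day0RT. In the same libraries the beige adipocyte markers summed to 84.7 to 93.9 CPM in day0RT, and to 130.5 to 165 in day1C, 147 to 166 in day1CL and 107 to 142 in day7CL, the groups with a call, all above the controls. They summed to 88.4 to 95.2 CPM in day3C, 76.4 to 114 in day3CL and 76.2 to 84.5 in day7C, the groups without one. The adipocyte markers were above the controls (172 to 213 CPM) without overlap in day1C (254 to 289 CPM). The part of depth and of these markers in the calls was not tested. The day1CL call of Hdac9 was lost without day1CL replicate 1 (adjusted p = 0.153). Of the 21 fits that each left out 1 mouse, 4 lost the day1C call of Hdac9 (adjusted p up to 0.235). The Hdac4 call was lost in 4 (up to 0.228) and the day7CL call of Hdac9 in 2 (up to 0.0782). Mef2c, the member most open in B cells, had a log2 fold change of 0.27 in day7CL (adjusted p = 0.0679), and Mef2b stayed between 190.1 and 290.4 CPM over all 21 mice. In the remaining clusters edgeR called 0 of 233 tests of the members, beside 0.0273% over all genes. An unadjusted p under 0.05 was found in 28, with no share of all genes counted at that threshold, so no excess can be read from it. The VSMC cluster and VEC had too few libraries to be compared with day0RT, as had dendritic cells of day3CL. None of these is among the 233 tests.

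The genes that work with these proteins were followed as 5 lists, in adipocytes. The first list held kinases that act on class IIa HDACs or MEF2, directly or through other kinases. Of 19 tested, 5 were higher and 4 lower in beige than in white nuclei, beside 28.4% of all genes tested. The median log2 fold change of the 19 was -0.02. Those called included Camk2b (0.79), Stk11, the gene of LKB1 (0.47), and Prkd3 (0.41) on the higher side, and Camk2a (-0.56), Prkd2 (-0.39) and Camk2g (-0.32) on the lower. Prkd2, a protein kinase D that exports class IIa HDACs, was also lower than in day0RT in 5 of the 6 treated groups, with log2 fold changes of -0.55 in day3C, -0.55 in day7C, -0.57 in day1CL, -0.54 in day3CL and -0.40 in day7CL. Prkaa2, a catalytic subunit of AMPK, was higher in day7C (0.62), day3CL (0.59) and day7CL (0.75). Camk1d was higher in day1CL (0.70), as was Prkd1 there (0.44) and in day7C (0.36). Over the 20 kinases tested, the calls were 0 in day1C, 1 in day3C, 3 in day7C, 3 in day1CL, 2 in day3CL and 2 in day7CL. Of all genes, 0.34%, 1.64%, 5.09%, 2.61%, 4.78% and 7.8% were called in these comparisons, and the counts of the lists that follow stand beside the same percentages.

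Of 11 phosphatases and 14-3-3 proteins, Ywhaz (0.50) and Ppp3ca (0.20) were higher and Ywhab (-0.51) lower in beige nuclei, and the median was 0.15. Ppp3ca, the catalytic subunit of calcineurin, was higher than in day0RT in day7C (0.46) and day7CL (0.59), while the 14-3-3 genes Ywhab (-0.45 in day7C, -0.42 in day7CL) and Ywhaq (-0.54 in day7CL) were lower. These 2 calls in day7C and 3 in day7CL were the only ones of the 11 genes against day0RT. Of 25 corepressor and coactivator partners, 5 were higher and 4 lower in beige nuclei, led by Ppargc1b (0.65), Ppargc1a (0.61) and Tbl1xr1 (0.48) against Tbl1x (-0.27), Ctbp2 (-0.22) and Ncoa2 (-0.20). Tbl1xr1, a subunit of the NCoR/SMRT complex, was also higher than in day0RT in day7C (0.51), day3CL (0.54) and day7CL (0.73). Mrtfb, a coactivator of SRF, was higher in the same 3 groups (0.41, 0.51 and 0.45), and Nfatc1 in day3CL (0.49) and day7CL (0.45). Ep300, an acetyltransferase that MEF2 recruits, was higher in day3CL (0.72), Ppargc1a in day7CL (0.45) and Nfatc2 lower in day7C (-0.52). The 25 partners thus had 3 calls in day7C, 4 in day3CL, 5 in day7CL and none in the other 3 groups.

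Of the 13 other histone deacetylases, the mitochondrial Sirt3 was higher in beige nuclei (0.55), none of the rest passed, and edgeR called none of the 13 in any of the 6 treated groups. Of 15 textbook targets of MEF2 or class IIa HDACs, 5 were higher and 2 lower in beige nuclei, with a median of 0.21. Those higher were led by Myom1 (0.94), which encodes a protein of the sarcomere, Pdk4 (0.68), a brake on glucose oxidation, and Ppargc1a (0.61), and those lower were Smyd1 (-0.24) and Mb (-0.22). Myom1 was higher than in day0RT in day3C (0.71), day7C (1.28, adjusted p = 4.15e-06), day3CL (0.78) and day7CL (0.80), while Mb (-0.57 in day7C) and Smyd1 (-0.42 in day7C, -0.37 in day7CL) were lower. The 15 targets had 1 call in day3C, 3 in day7C, 1 in day3CL, 3 in day7CL and none in day1C and day1CL. All values in the lists are log2 fold changes of genes that passed the test.

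MEF2 proteins act through their consensus, so its 2591 peaks in the genome were described as well, with no test. In the VSMC cluster, where Mef2d and Hdac4 were most open, these peaks held 2.91 ± 0.168% of the peak counts. Beige adipocytes came next with 1.85 ± 0.114%, then B cells with 1.75 ± 0.0484% and white adipocytes with 1.70 ± 0.0605%, and CD4 T cells were lowest with 1.41%. In adipocytes the share was 1.60 to 1.65% in day0RT, and it was 1.65 to 1.71% in day1C, 1.67 to 1.75% in day3C and 1.78 to 1.81% in day7C. With CL it was 1.71 to 1.86% on day 1, 1.76 to 1.79% on day 3 and 1.75 to 1.76% on day 7. The groups from day 3 of cold and from day 1 of CL lay above the controls without overlap. In white nuclei alone the same held, with 1.59 to 1.64% in day0RT, 1.65 to 1.71% in day3C, 1.71 to 1.73% in day7C, 1.71 to 1.85% in day1CL, 1.75 to 1.78% in day3CL and 1.72 to 1.74% in day7CL. In white and beige nuclei together, peaks with the looser form held 7.64 to 7.75% of the counts in day0RT and 7.83 to 7.97% in day1C. Every mouse of the other treated groups also lay above the controls there, so the shift was not particular to the strict consensus. The skeletal muscle markers summed to 149 to 176 CPM in the adipocytes of day0RT and to between 61.5 and 179 CPM in those of the treated groups. The part of these markers, of base composition and of peak width in the share was not tested.

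**Figure D5:**
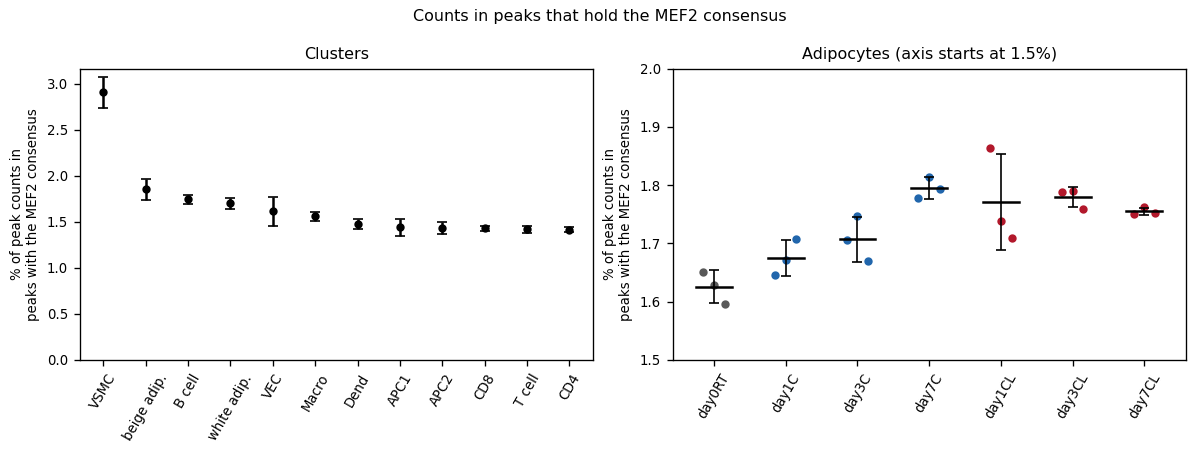
Share of peak counts, in percent, in the 2591 peaks with the MEF2 consensus. The first panel gives the mean ± SD over mice in each cluster, and the second gives each mouse by group in adipocytes, with an axis that starts at 1.5%. The VSMC cluster is at 2.91%, and the day0RT mice at 1.60 to 1.65% lie below those of all groups but day1C, which they meet at 1.65%.

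The same peaks were then taken one by one. Of 678 peaks with the consensus that could be tested in beige against white, 18.7% were called higher and 13.9% lower in beige, beside 11.2% and 17.5% of all tested peaks, and their median log2 fold change was -0.01 beside -0.10. Of 2991 tested peaks with the looser form, 12.7% were higher and 19.1% lower in beige, close to all tested peaks. Of the 885 peaks with the consensus tested against day0RT, the percentages called higher were 0.339 in day1C, 1.58 in day3C, 4.29 in day7C, 2.03 in day1CL, 5.42 in day3CL and 4.86 in day7CL. With the looser form they were 0.147, 1.23, 2.87, 1.42, 3.905 and 3.88. Over all peaks they were 0.0815, 0.644, 1.80, 0.891, 2.21 and 2.30. Peaks with the consensus also had a lower GC content, 46.6% against 50.6% over all peaks in the beige comparison. They were wider as well, with a median of 896 against 836 bases there. The part of base composition and width in these percentages was not tested. Among the member peaks, 2 of the 6 called in treated adipocytes, in Mef2c and at the Hdac5 promoter, and 1 of the 10 called in beige against white held the consensus. The Mef2c intron was the higher of these and the Hdac5 promoter the lower in treated adipocytes.

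Other motifs were searched on both strands. The letters TCAAGGTCA of estrogen-related receptors lay in 3 of the 226 member peaks (1.327%) and in 1.13% of all peaks, and 1 of the 3 was the Hdac4 intron that was higher in day3CL. Early B cell factor letters, TCCC and GGGA with 2 bases between them, lay in 3 member peaks and 2.277% of all peaks. The same Hdac4 intron was 1 of these 3. Nuclear factor I letters, TTGGC and GCCAA with 5 bases between them, lay in none of the member peaks and in 0.1023% of all peaks.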

How the data were processed

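Nuclei of frozen iWAT of 21 mice were profiled by single-nucleus ATAC-seq with combinatorial indexing. The authors aligned reads to mm10 with Bowtie2, filtered them with SAMtools, called peaks with MACS2 on nuclei aggregated per cluster, clustered with Signac, and removed doublets and nuclei of low depth or low peak share. The deposited matrix holds binary counts (65588856 entries of 1 and 145 stored zeros), so several reads count as 1 and peaks open in most nuclei can differ little. The mouse, group and cluster of each nucleus came from the deposited annotation, and no deposited comparison was used.

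Counts were summed per mouse and cluster with Python 3.11.15, pandas 2.3.3, numpy 2.4.6 and scipy 1.17.1, over libraries of at least 10 nuclei, and figures were drawn with matplotlib 3.10.9. Gene sums take every peak on the gene body and 2000 bases upstream, and peaks shared by several genes count for each. Tests used the quasi-likelihood test of edgeR 4.0.16 (limma 3.58.1, data.table in version 1.17.8, R 4.3.3) with TMM factors and filterByExpr (minimum count 10, minimum total 15, proportion 0.7), two-sided, with Benjamini-Hochberg adjustment over all genes or peaks within each comparison and a threshold of 0.05. Beige against white had the mouse as a block, and the treated groups were fitted together over 21 mice without a block. The log2 fold changes come from the fit and can differ from ratios of mean CPM. Simulated counts with known fold changes were put through the gene tests of beige against white. In adipocytes and B cells this was done for day7CL, with day7C left unchanged. Peak tests, CL against cold and the other clusters were not simulated.

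Gene counts ranged from 16073 to 555225 in beige, 268223 to 2857026 in white, 48788 to 3348440 in adipocyte and 43662 to 1466104 in B cell libraries. The members and lists were chosen with earlier results of these data known. The text names all 8 members, the 3 list genes of largest change per list, comparison and direction among those past the threshold, the promoter peak, the 2 peaks of largest change per member and direction in beige against white, and the 3 genes most like each member among those with a mean of at least 20 CPM in a cluster. Sequences and motif letters were read with pysam 0.24.0. Alternatives were DESeq2 1.42.0, other filters, promoter peaks, deeper nuclei, other blocks, white nuclei alone and leaving out each mouse. Pseudotime, co-accessibility and lipidomics were not used here.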

Additional observations from a re-analysis of the deposited data

Results flagged for a closer look

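Among the comparisons of CL with cold at matched days, 1 gene and 2 peaks of the members differed by edgeR's test of the difference itself, out of 24 gene tests and of 42 peaks tested at each day. Hdac7 was higher with CL than in the cold in adipocytes at day 1, by 0.77 on the log2 scale (SE 0.19, adjusted p = 0.0223, beside 0.923% of genes called), with CL mice at 120.1 to 180.0 CPM and cold mice at 54.6 to 98.7 CPM. Under the alternatives this call was lost in 9 and its direction turned in 1. The Mef2c intron at chr13:83603424-83604671 was higher with CL at day 1 by 1.52 on the log2 scale (SE 0.40, adjusted p = 0.037, beside 0.458% of peaks called), and the CL values rested on 2, 5 and 36 counts. The Hdac9 intron at chr12:34146604-34147587 was higher with CL at day 3 by 1.15 on the log2 scale (SE 0.31, adjusted p = 0.0234, beside 1.79%). The 8 genes in the 10 mice of the VSMC cluster were examined for a single mouse far from the others, and 0 of the 8 had one.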

How the results depend on the processing

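The calls of Mef2d and Hdac9 in beige against white stayed at 2 under all alternatives tried except promoter peaks only, which gave 0. Hdac4 and Hdac9 had no promoter peak, so Hdac9 could not be tested there. The 3 calls in treated adipocytes became 0 with DESeq2, 0 with promoter peaks only, 1 with nuclei of at least 2000 counts and 5 with only the groups compared in the fit, and ranged from 2 to 4 without 1 mouse. With promoter peaks only, Hdac9 could again not be tested. The Mef2c promoter peak held 8 counts in white and 1 in beige nuclei, under the minimum total of 15. The single call of CL against cold became 0 with DESeq2, promoter peaks only, nuclei of at least 2000 counts, white nuclei only, nuclei without B or T cell marker counts and, chosen after seeing the data, nuclei without a shared barcode. It ranged from 0 to 1 without 1 mouse. With promoter peaks only, Hdac7 in that contrast turned to -0.10. The 4 B cell calls became 2 with DESeq2, 0 with promoter peaks only, 0 with nuclei of at least 2000 counts and 2 without shared barcodes, and ranged from 1 to 4 without 1 mouse. These B cell calls, of Hdac9 and Hdac4, could not be tested with promoter peaks only, so the 0 there was fixed in advance. DESeq2 called 1.06% of all adipocyte gene tests, against 3.71% by edgeR. The cause of these changes was not tested.

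The 10 peak calls in beige against white became 34 with no filter on low counts and 6 at an adjusted p under 0.01. The 10 peak calls in treated adipocytes became 0 with DESeq2, which called 0.0279% of all peak tests against 2.39%, 6 in white nuclei only and 8 with at least 100 nuclei per library, and ranged from 0 to 11 without 1 mouse. These peak alternatives were chosen after seeing the data. Mef2c lost its day7CL gene call with DESeq2 (adjusted p = 0.0575), and its intron lost the day7CL call with DESeq2 (adjusted p = 0.146) and without day0RT replicate 3 (adjusted p = 0.0672) or day7CL replicate 1 (adjusted p = 0.12). The median of the peaks with the consensus was -0.09 in the looser form and -0.36 with no filter.

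Groups share replicate numbers. The study speaks of 3 independent batches, but no label ties a number to a batch, and the numbers were not taken as pairs. Same-numbered adipocyte libraries correlated at -0.11 to 0.15 in their deviations, with 1 of 63 pairs over 0.1, and 7 of 21 mice correlated best with their own number. With the replicate number as a block the calls were 3 in treated adipocytes, 1 for CL against cold, 4 in B cells, 2 in beige against white (with group and no mouse term) and 10 for treated peaks. Depth limits these results most in beige libraries, of 12 to 107 nuclei, in day1CL adipocytes, and at peaks with fewer than 10 counts per mouse.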
